A study of Mus musculus with 10 samples.

Results

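Ppm1j, Ppp1r1a, Serpinb1a, Ly86, Pla2g7, Cpne6, Tmem255a, Ctxn3 and Sh3bgrl2 are 9 of the 24421 genes counted in pools of vagal sensory neurons of the mouse. They were chosen because earlier readings of these counts had them high in pools of jugular neurons and close to 0 in pools of nodose neurons, in at least 1 of the study's 2 ways of selecting capsaicin-sensitive cells. The jugular against nodose values are therefore a description of the choice and carry no test. What the choice did not use was the level in nodose neurons without the Trpv1 reporter, and each gene was followed there.

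The study asked how capsaicin-sensitive neurons of the 2 vagal ganglia differ in gene expression. Neurons were picked one by one from the rostral (jugular) or caudal (nodose) end of the jugular/nodose complex, pooled and sequenced, with 2 pools in each of 5 groups. In the Trpv1 selection, from Trpv1-tdTomato mice, there were 2 pools of 30 reporter-positive jugular cells, 2 pools of 30 reporter-positive nodose cells and 2 pools of 15 reporter-negative nodose cells. In the capsaicin selection, from wild-type C57BL/6 mice, there were pools of 15 and 16 jugular cells that answered capsaicin but not α,β-methylene ATP (which opens P2X receptors), and pools of 14 and 15 nodose cells that answered both. All 6 pools of the Trpv1 selection carry a Cre recombinase driven by Trpv1 and a tdTomato reporter that Cre switches on for good, so a red cell expresses Trpv1 or did so at some time. The red cells came from 2 mice and the reporter-negative cells from the same animals, so the 6 pools share mice. Which mouse gave which pool is not stated in the sources used here, nor is the age of the animals. Selection, strain, sequencing core and depth go together and cannot be told apart. The p-values given for relatives measure only the spread between 2 pools a group.

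Jugular neurons come from the neural crest and nodose neurons from the epibranchial placodes, and both ganglia send C-fibers to the airways and other viscera. The capsaicin receptor TRPV1 marks most of these nociceptive C-fibers, while many nodose neurons without it are low-threshold mechanosensors. The 9 genes belong to unlike families: a phosphatase and a phosphatase inhibitor, proteins best known from blood and immune cells, and membrane-bound or small cytosolic proteins of which little is known in sensory neurons.

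A pool held 148452506 to 167704327 counts in the Trpv1 selection, against 17666710 to 30810863 in the capsaicin selection. Levels are given as CPM, counts scaled for sequencing depth with size factors common to all 10 pools. A floor of 3 counts was worth 0.0116 to 0.0154 CPM in the deeper pools and 0.118 to 0.176 CPM in the shallower ones, and it covers counting error only. The labels held against defining genes: the summed crest markers (Prdm12, Tac1, Gfra3 and Mrgprd) were 880 to 1397 CPM in the jugular pools and at most 1.52 CPM in all nodose pools. Trpv1 itself was at 202 and 118 CPM in the Trpv1-positive nodose pools, 17.8 and 25.8 CPM in the Trpv1-positive jugular pools, and 0.0348 and 0.0334 CPM in the Trpv1-negative pools. In these bulk pools, fewer cells that express a gene and less RNA per cell cannot be told apart. Pools of a group often disagreed on single genes: among genes that reached 10 CPM in 1 pool of a group, 44.3% were under 1 CPM in the other pool of the capsaicin nodose group, and 14.6% to 27.3% in the other groups.

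The 9 genes fell into 3 patterns. Serpinb1a and Ly86 were near 0 in Trpv1-positive and Trpv1-negative nodose pools alike, although Ly86 was not near 0 in 1 of the capsaicin nodose pools. Ppm1j, Ppp1r1a, Cpne6 and Tmem255a were near 0 in both kinds of capsaicin-sensitive nodose pools but present in the Trpv1-negative nodose pools, at 4.19% to 24.3% of the Trpv1-positive jugular mean. Ctxn3 and Sh3bgrl2 were near 0 in both capsaicin nodose pools but not in the Trpv1-positive nodose pools. Sh3bgrl2 was also at 3 counts in Trpv1-negative pool 1. Pla2g7 lay between the last 2 patterns. The plot of levels in each pool shows all 3.

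**Figure D1:**
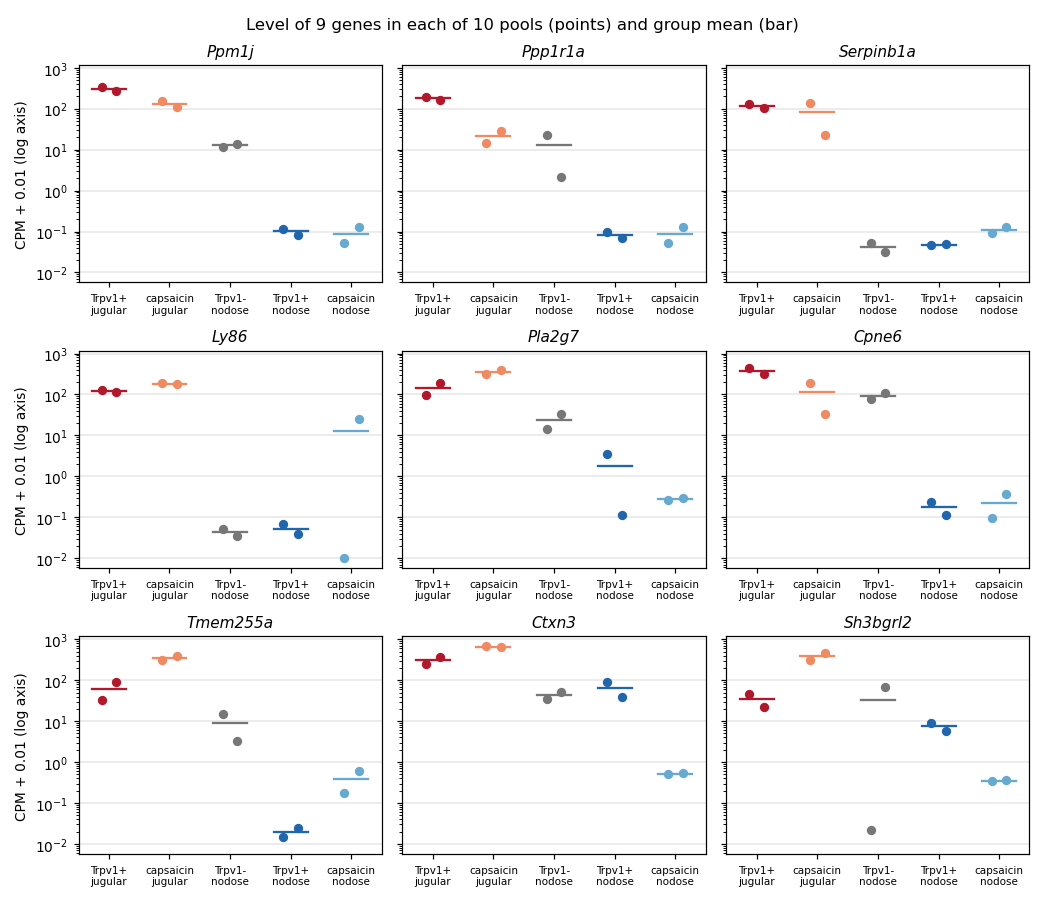
Level of each gene in each of the 10 pools (points; y axis, CPM + 0.01 on a log scale) by group (x axis), with the mean of the 2 pools as a bar. In every panel both jugular groups lie above the capsaicin nodose group; the Trpv1-negative nodose pools (grey) lie at 0.0425 CPM or less for Serpinb1a and Ly86 and between 2.09 and 106 CPM for Ppm1j, Ppp1r1a, Cpne6 and Tmem255a.

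For 5 of the 9 genes (Ppm1j, Ly86, Pla2g7, Tmem255a and Sh3bgrl2) the RefSeq promoter table on GRCm38.p6 held the bases before the RefSeq start. The 250 bases before the start are shown for 3 of them, 1 near 0 in the Trpv1-positive nodose pools (Ppm1j), 1 with the fewest counts of the 9 there (Tmem255a) and 1 that was not near 0 there (Sh3bgrl2). Capitals mark matches, on either strand, to a TATA box (TATAAA), a GC box (GGGCGG), a CRE core (TGACG), a RUNX motif (TGTGGT or TGCGGT), a homeodomain motif (TAATTA) or an E-box (CANNTG). They are chr3:104780806-104781055 (+ strand), chrX:38252482-38252731 (- strand) and chr9:83548088-83548337 (+ strand).
Ppm1j: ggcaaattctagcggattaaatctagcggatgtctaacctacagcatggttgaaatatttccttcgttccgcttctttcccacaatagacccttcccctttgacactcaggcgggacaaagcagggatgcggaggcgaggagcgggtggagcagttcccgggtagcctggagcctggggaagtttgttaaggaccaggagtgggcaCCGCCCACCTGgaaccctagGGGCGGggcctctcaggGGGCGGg
Tmem255a: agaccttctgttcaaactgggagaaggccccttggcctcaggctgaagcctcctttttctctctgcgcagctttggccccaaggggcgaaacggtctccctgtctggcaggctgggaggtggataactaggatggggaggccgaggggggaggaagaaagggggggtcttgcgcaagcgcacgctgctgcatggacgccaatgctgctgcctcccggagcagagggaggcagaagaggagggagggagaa
Sh3bgrl2: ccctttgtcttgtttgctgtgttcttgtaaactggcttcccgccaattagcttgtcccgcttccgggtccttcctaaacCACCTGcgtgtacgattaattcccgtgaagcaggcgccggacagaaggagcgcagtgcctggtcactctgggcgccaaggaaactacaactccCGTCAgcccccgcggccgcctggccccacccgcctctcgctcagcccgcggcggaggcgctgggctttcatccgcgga

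The Ppm1j window held 3 GC boxes, at 44, 24 and 7 bases before the start, and an E-box that overlaps the first of them, counted by the leftmost base of each match. The Sh3bgrl2 window held an E-box and a CRE core, 171 and 78 bases before the start, and the Tmem255a window held none of the 6 motifs. A GC box stood in 32.7% of the 32851 promoter windows of this length, an E-box in 66.2%, a CRE core in 17.8%, a RUNX motif in 18.6%, a TATA box in 12.4% and the homeodomain motif in 4.84%. None of the 5 windows held the letters of the TATA box, the RUNX motif or the homeodomain motif. None of the 6 motifs was in all 5 windows. Their GC content was 50% (Ly86) to 62.8% (Sh3bgrl2), against a median of 52.4% over all windows. The RefSeq start can differ from the GENCODE span given for a gene below. The Pla2g7 window, chr17:43568201-43568450, lies inside that span, and the Ly86 and Sh3bgrl2 windows overlap theirs.

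Ppm1j encodes a serine/threonine phosphatase of the PP2C (PPM) family and spans chr3:104781056-104786018 on the + strand of GRCm38. It was at 338.5 and 271 CPM in the Trpv1-positive jugular pools and at 151 and 113 CPM in the capsaicin jugular pools. In the Trpv1-positive nodose pools it was at 0.108 and 0.0736 CPM (21 and 15 counts), and the capsaicin nodose pools held 1 and 2 counts. The Trpv1-negative nodose pools, at 11.5 and 14.1 CPM, lay apart from both sides: below every jugular pool and above every Trpv1-positive nodose pool. The mean was 3358-fold higher in jugular than in nodose pools of the Trpv1 selection, 1663-fold in the capsaicin selection (569 to 8065, 95% counting interval, from 3 nodose counts) and 23.9-fold over the Trpv1-negative pools. Per kilobase of exon, the Trpv1-positive jugular level of 168 CPM ranked 326 of 23358 genes.

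Ppp1r1a encodes inhibitor-1, which blocks protein phosphatase 1 once protein kinase A has phosphorylated it, and spans chr15:103530279-103538003 on the - strand. Its level was 197 and 161 CPM in the Trpv1-positive jugular pools but only 14.9 and 28 CPM in the capsaicin jugular pools, where its level per kilobase of exon, 16.4 CPM, was the lowest of the 9. The Trpv1-positive nodose pools held 0.0875 and 0.0589 CPM and the capsaicin nodose pools 1 and 2 counts. The Trpv1-negative pools differed from each other, at 23.1 and 2.09 CPM, and overlapped the capsaicin jugular pools but not the Trpv1-positive jugular pools. Jugular over nodose, the mean was 2451-fold higher in the Trpv1 selection, against 270-fold in the capsaicin selection (92.2 to 1313, counting interval, from 3 nodose counts).

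Of the genes best known from immune cells, Serpinb1a was near 0 in all 6 nodose pools and Ly86 in 5 of them. Serpinb1a encodes an intracellular inhibitor of neutrophil serine proteases and spans chr13:32842092-32851185 on the - strand. It was at 132.5 and 106 CPM in the Trpv1-positive jugular pools and at 139 and 22.4 CPM in the capsaicin jugular pools. All 6 nodose pools were at 0.0209 to 0.117 CPM, that is 2 to 11 counts each, and no jugular pool came near that range. The Trpv1-negative mean was 0.0266% of the Trpv1-positive jugular mean, a 3764-fold difference. Of the 1869 stretches of 50 bases in its transcript, 3.42% also occur in Serpinb1b, Serpinb1c or the pseudogene Serpinb1-ps1, so a small part of its reads could be shared with them.

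Ly86 encodes MD-1, a secreted partner of the receptor RP105 (Cd180) of B cells and macrophages, and spans chr13:37345208-37419036 on the + strand. It was at 130 and 114.5 CPM in the Trpv1-positive jugular pools and at 187 and 175.5 CPM in the capsaicin jugular pools. The Trpv1-positive nodose pools held 11 and 6 counts and the Trpv1-negative pools 11 and 6 counts, at most 0.0566 CPM. One nodose pool stood out: the capsaicin nodose pool 2 held 440 counts (25.7 CPM), while capsaicin nodose pool 1 held 0 counts, which allows up to 0.125 CPM. That 1 pool set the 14.1-fold jugular over nodose ratio of the capsaicin selection, against 2837-fold in the Trpv1 selection. The fitted log2 fold change in the capsaicin selection was 4.34 ± 2.75 (SE, n = 2 against 2). Against capsaicin nodose pool 1 alone, with 3 counts of that pool as its floor, the jugular mean was at least 1448-fold higher.

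Since Ly86 is a leukocyte gene, macrophage genes were read beside it. Of 14 macrophage markers, 9 had no count in any pool, among them Csf1r, Ptprc, Tyrobp, Aif1 and the C1q genes. The summed level of the list was 3.91 to 6.15 CPM in the Trpv1-positive jugular pools, 0.125 to 19.2 CPM in the capsaicin jugular pools, 11.8 to 14.6 CPM in the Trpv1-positive nodose pools, 2.69 to 76.7 CPM in the capsaicin nodose pools and 1.09 to 6.29 CPM in the Trpv1-negative pools. Ly86 alone was at 114.5 CPM or more in every jugular pool. The capsaicin nodose pool with Ly86 was the one at 2.69 CPM, and the pool without Ly86 was the one at 76.7 CPM, nearly all of it Cd68 (75.7 CPM). Neither Cd180, the receptor that MD-1 binds, nor Tlr4 had a count in any of the 10 pools. Red blood cell markers had no count either.

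Pla2g7 encodes the secreted platelet-activating factor acetylhydrolase, which breaks down that lipid mediator, and spans chr17:43568098-43612201 on the + strand. It was at 96.3 and 192.5 CPM in the Trpv1-positive jugular pools and at 320 and 390 CPM in the capsaicin jugular pools. The Trpv1-positive nodose pools were at 3.44 and 0.103 CPM, the capsaicin nodose pools at 0.25 and 0.293 CPM, and the Trpv1-negative pools at 14 and 32.4 CPM. The groups thus ran from capsaicin jugular through Trpv1-positive jugular and Trpv1-negative nodose down to both Trpv1-positive nodose and capsaicin nodose, which overlapped. The 668 counts of Trpv1-positive nodose pool 1 decided the size of the jugular difference in that selection: the fitted log2 fold change was 6.37 ± 1.86 (SE) with that pool and 10.44 without it. Of its exonic bases, 319 are shared with the antisense gene 1700071M16Rik, and without the strand setting of the counting the reads of both cannot be told apart.

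Cpne6 encodes a copine, a protein that binds membranes when calcium rises, and spans chr14:55510445-55517431 on the + strand. It was at 445 and 309 CPM in the Trpv1-positive jugular pools, and in the capsaicin jugular pools it was at 195 and 32.7 CPM. The Trpv1-positive nodose pools were at 0.226 and 0.103 CPM and the capsaicin nodose pools at 0.0834 and 0.351 CPM. In contrast, the Trpv1-negative nodose pools were at 77.5 and 106 CPM, 24.3% of the Trpv1-positive jugular mean and within the spread of the capsaicin jugular pools. Whether the capsaicin jugular or the Trpv1-negative mean was second depended on the scaling: 114 against 91.7 CPM with size factors, and 134 against 149 CPM of the plain total.

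Tmem255a encodes a membrane protein of little known function and spans chrX:38196573-38252439 on the - strand. The Trpv1-positive nodose pools held 1 and 3 counts, at or under the floor, the fewest of the 9 genes. Its level was 33.2 and 88.5 CPM in the Trpv1-positive jugular pools and 312 and 396.5 CPM in the capsaicin jugular pools, without overlap. The Trpv1-negative pools, at 15 and 3.28 CPM, lay between the jugular pools and the capsaicin nodose pools (0.167 and 0.585 CPM). The ratio of means was 6128 in the Trpv1 selection (2393 to 22490, counting interval, from 4 nodose counts) and 943 in the capsaicin selection. It shares 474 exonic bases with Zbtb33 on the opposite strand, a gene whose reads cannot be told apart there unless the counting used strand.

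Ctxn3 encodes a cortexin, a small single-pass membrane protein of neurons, and lies on chromosome 18. It was the member with the highest jugular level per kilobase of exon, 192.5 CPM in the Trpv1-positive pools and 413 CPM in the capsaicin pools, where it ranked 61 of 23358 genes. By pool it was at 251 and 367 CPM in the Trpv1-positive jugular group and at 674.5 and 652 CPM in the capsaicin jugular group. The nodose groups did not share a level: 92.4 and 38.3 CPM in the Trpv1-positive pools, 34.2 and 50.6 CPM in the Trpv1-negative pools and 0.5 and 0.527 CPM in the capsaicin pools. Near-absence from nodose neurons was thus seen in the capsaicin selection only, where the ratio of means was 1292, against 4.73 in the Trpv1 selection.

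Sh3bgrl2 encodes a small protein with a thioredoxin-like fold and spans chr9:83548327-83638801 on the + strand. It was at 313 and 459.5 CPM in the capsaicin jugular pools but at 45.6 and 22.6 CPM in the Trpv1-positive jugular pools, where its level per kilobase, 4.34 CPM, was the lowest of the 9. The capsaicin nodose pools held 0.333 and 0.351 CPM and the Trpv1-positive nodose pools 9.26 and 5.78 CPM. The Trpv1-negative pools disagreed: 3 counts (0.0116 CPM) in pool 1 and 15929 counts (66.5 CPM) in pool 2. That group overlapped the Trpv1-positive jugular and Trpv1-positive nodose pools, and its mean of 33.2 CPM stands for neither of its pools. The ratio of jugular to nodose means was 4.54 in the Trpv1 selection, far from the 1128 of the capsaicin selection.

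Side by side, 7 of the 9 genes had both jugular pools above both nodose pools and a mean at least 10-fold higher in the Trpv1 selection, all but Ctxn3 and Sh3bgrl2. That description was met by 6.14% of the 5819 genes with at least 10 CPM in both pools of a group. In the capsaicin selection it was met by 9 of 9 genes, and by 15.1% of 5124 genes. Both counts follow from how the genes were chosen, and nothing is read from them. Against the Trpv1-negative nodose pools, 4 of 9 met it (Ppm1j, Ppp1r1a, Serpinb1a and Ly86), and 3.09% of 6239 genes. The jugular side of that comparison had chosen the genes, so it too has no test. The plot of fold changes sets the comparisons beside each other.

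**Figure D2:**
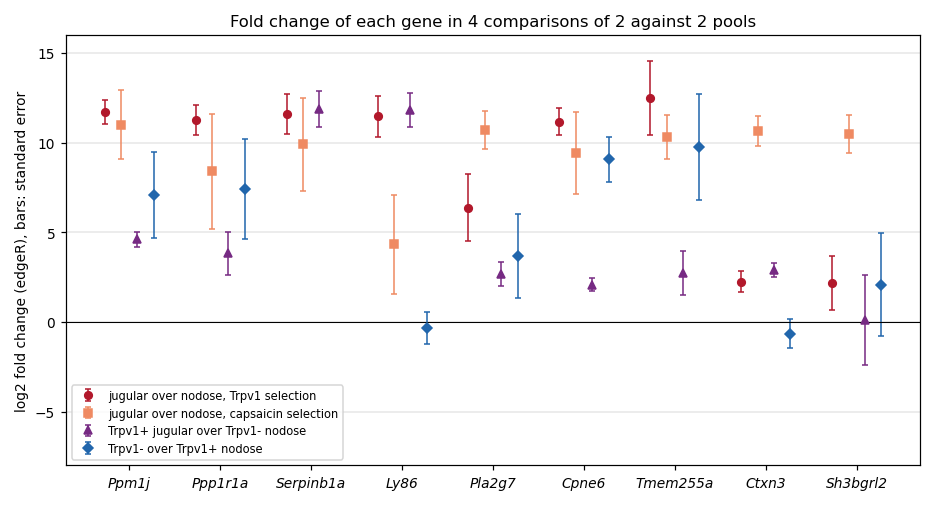
Fitted log2 fold change (y axis) with its standard error (bars) for each gene (x axis) in 4 comparisons of 2 against 2 pools. Serpinb1a and Ly86 keep log2 differences near 11.8 over the Trpv1-negative nodose pools (triangles), while those of the other 7 genes are 4.6 or less; Serpinb1a has no point for Trpv1-negative over Trpv1-positive nodose because its counts were too low to be fitted.

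The selections also differed in the order of the jugular groups. Ppm1j, Cpne6 and Ppp1r1a had the higher mean in Trpv1-positive jugular pools, without overlap. Ly86, Pla2g7, Tmem255a, Ctxn3 and Sh3bgrl2 had the higher mean in capsaicin jugular pools, also without overlap. Only for Serpinb1a did the jugular groups overlap. How many of all genes lack overlap between the jugular groups was not counted, so nothing is read from this. The mean of Sh3bgrl2 was 34.1 CPM in the Trpv1-positive jugular group and 386 CPM in the capsaicin jugular group. These differences lie between laboratories, strains and depths as well as between selections, and were not tested. In the Trpv1-positive jugular pools Trpv1 itself was at 17.8 and 25.8 CPM, and in the capsaicin jugular pools at 223 and 70.6 CPM.

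The comparison of Trpv1-negative with Trpv1-positive nodose pools asked whether the genes low in Trpv1-positive nodose neurons were low in nodose neurons at large. Genes picked as near 0 in the Trpv1-positive nodose pools had little room to lie lower in the Trpv1-negative pools. The differences are therefore a description with no test. Cpne6 had a log2 fold change of 9.09 ± 1.25 (SE, n = 2 against 2) in favour of the Trpv1-negative pools, Tmem255a of 9.75 ± 2.97, Ppm1j of 7.10 ± 2.40 and Ppp1r1a of 7.42 ± 2.77. The ratio of means was 556.5 for Cpne6, 918 for Tmem255a (358 to 3370, counting interval, from 4 counts), 141 for Ppm1j and 172 for Ppp1r1a. Pla2g7, at 3.68 ± 2.34, did not overlap between the groups either. Ctxn3 (-0.65 ± 0.82), Ly86 (-0.36 ± 0.89) and Sh3bgrl2 (2.08 ± 2.87) overlapped, as did Serpinb1a, which had too few counts to be fitted. The share of all genes without overlap between these nodose groups was not counted, so nothing is read from the overlaps.

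Markers of other cells also differed between these groups. The satellite glia list summed to 2954 to 3254 CPM in the Trpv1-negative and 3350 to 3416 CPM in the Trpv1-positive nodose pools, most of it Apoe. Under that sum, 3 of its 9 genes were higher in both Trpv1-negative pools: Sox10 at 10.2 and 2.24 against 0 and 0.176 CPM, S100b at 362 and 338 against 166 and 189.5 CPM, and Sparc at 91 and 140.5 against 70.8 and 35.8 CPM. Apoe went the other way, at 2312 and 2129 against 2450 and 2726 CPM. The rest of the list, Fabp7 and Glul among them, overlapped between the groups. The share of all genes higher in both pools was not counted, so nothing is read from the 3. S100b was also at 421 and 356 CPM in the Trpv1-positive jugular pools, where Sox10 held 1 and 5 counts and the list summed to 2752 to 3822 CPM. The fibroblast list was at 14.4 to 19.3 CPM in the Trpv1-negative pools and 0.221 to 7.81 CPM in the Trpv1-positive nodose pools, with Col3a1 at 12 and 15.2 against 0.139 and 0 CPM. In the capsaicin selection that list was at 41.6 to 239 CPM in the jugular pools, all of the higher value being Dcn, and at 0 to 38.4 CPM in the nodose pools. The part of these markers in the members' values was not tested.

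Family relatives of the 9 genes were then read in the same way: 82 listed relatives were in the files, and 13 of them had no count in any pool. Between jugular and nodose pools of the Trpv1 selection, 0 of 53 tested relatives were called by edgeR's quasi-likelihood test (adjusted p of at most 0.1, fold of at least 2, 10 CPM in both pools of a group), against 0.318% of all genes. At an unadjusted p under 0.05, 4 relatives were higher in jugular pools and 4 lower, against 6.51% and 5.37% of all genes. DESeq2 called 3 relatives there, against 3.05% of all genes. In the capsaicin selection edgeR called 0 of 43 relatives and 0% of all genes, with 5 higher and 1 lower at an unadjusted p under 0.05 (11.5% and 2.57% of all genes), and DESeq2 called 6 higher and 0 lower against 6.04%. For Trpv1-negative against Trpv1-positive nodose pools, edgeR called 0 of 57 relatives and 0.0527% of all genes, with 5 higher and 5 lower at an unadjusted p under 0.05 (6.57% and 4.53% of all genes), and DESeq2 called 3 (Ppm1e and Cpne3 higher, Ppp1r8 lower) and 2.09% of all genes.

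The clade B serpins, relatives of Serpinb1a, held 2 of the 3 relatives that DESeq2 called in the Trpv1 selection. Serpinb1b, a close copy of Serpinb1a at chr13:33078575-33094380, was at 26.6 and 33.3 CPM in the Trpv1-positive jugular pools and at 2 and 1 counts in the Trpv1-positive nodose pools (DESeq2 adjusted p = 1.73e-09; edgeR adjusted p = 0.321). In the capsaicin jugular pools it was at 24.0 CPM and at 0 counts, and in the Trpv1-negative pools at 0.182 and 9.93 CPM, so unlike Serpinb1a it was not near 0 in every nodose pool. Serpinb8 was at 19.8 and 13.6 CPM in the Trpv1-positive jugular pools, 68.2 and 12.2 CPM in the capsaicin jugular pools and at most 0.113 CPM in all 6 nodose pools (Trpv1 selection, DESeq2 log2 7.58, adjusted p = 1e-05; edgeR adjusted p = 0.335). Serpinb9, an inhibitor of granzyme B, was at 61.5 and 25.6 CPM in the capsaicin jugular pools and had no count in the capsaicin nodose pools (DESeq2 adjusted p = 0.000897; edgeR adjusted p = 0.352). In the Trpv1-positive jugular pools Serpinb9 was at 11.5 and 0.42 CPM. Serpinb6a did not follow these serpins: it was at 223 CPM or more in all 10 pools. Nor did Serpinb1c, at 0.353 CPM or less in every pool. Serpinb2 was at 62 CPM in capsaicin nodose pool 1 and at most 0.0834 CPM in the capsaicin jugular pools, but at 25.5 CPM in Trpv1-positive jugular pool 2. Of the 16 clade B serpins, 7 had no count in any pool.

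Among the phosphatase relatives, Ppm1h ran opposite to Ppm1j: it was at 61.4 and 97.6 CPM in the Trpv1-positive nodose pools and at 1.55 and 4.02 CPM in the jugular pools (DESeq2 log2 -4.87, adjusted p = 0.0108; edgeR adjusted p = 0.321). In the capsaicin selection it was far higher on both sides, with nodose pools at 1998 and 9101 CPM and jugular pools at 582 and 452 CPM (edgeR adjusted p = 0.352). Ppp1r2, which encodes inhibitor-2 of protein phosphatase 1, was at 469 and 589 CPM in Trpv1-positive jugular and 80.5 and 143.5 CPM in Trpv1-positive nodose pools (edgeR adjusted p = 0.238), and at 640 and 699 against 112 and 25.2 CPM in the capsaicin selection (edgeR adjusted p = 0.352). Unlike Ppp1r1a, it was never near 0. Tmem255b, the only relative of Tmem255a, had no count in the Trpv1-positive jugular pools and 6.78 and 2 CPM in the Trpv1-positive nodose pools (edgeR adjusted p = 0.321). In the capsaicin selection it was at 8.71 and 0 CPM in the jugular pools and at 69.4 and 229 CPM in the nodose pools. The Trpv1-negative pools were at 0.00386 and 8.48 CPM. Cpne3 was at 154 and 146 CPM in the Trpv1-negative pools and at 16.9 and 5.67 CPM in the Trpv1-positive nodose pools (DESeq2 adjusted p = 0.0835; edgeR adjusted p = 0.366). In the capsaicin nodose pools it was at 125 and 244 CPM, so it was not low in both kinds of capsaicin-sensitive nodose pools.

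Across the 10 pools the 36 pairs of members had Pearson correlations of log2(CPM + 1) from 0.455 (Ppp1r1a and Sh3bgrl2) to 0.95 (Ppm1j and Pla2g7), with a median of 0.801. These are descriptions, since the pools share groups and the genes were picked for a common contrast. Among 7495 other genes, those most like the mean pattern of the 9 were Piezo2 (r = 0.979 over 10 pools), Rph3a (0.973), Plxnc1 (0.970), Gm765 (0.962) and A830018L16Rik (0.962). Piezo2, the mechanically gated channel, was at 44.1 and 79.9 CPM in the Trpv1-positive jugular pools, 92.2 and 81.9 CPM in the capsaicin jugular pools, 10.8 and 8.66 CPM in the Trpv1-negative pools and at most 0.234 CPM in the other 4 nodose pools. It was also the gene most like Ppm1j (0.978). Serpinb1a was most like Tac1 (0.994), the substance P precursor gene, Pla2g7 most like Rph3a (0.987), Tmem255a most like Plxnc1 (0.979), Cpne6 most like Slc2a6 (0.968), Ctxn3 most like Slc9a3r2 (0.966), Ppp1r1a most like Prmt10 (0.960), Ly86 most like Cd9 (0.931) and Sh3bgrl2 most like Palmd (0.918). Such a correlation ignores level and fold: Cd9 was at 204 CPM or more in every nodose pool, while Ly86 was near 0 in most of them. The heat map places the genes most like the mean pattern beside the members and markers.

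**Figure D3:**
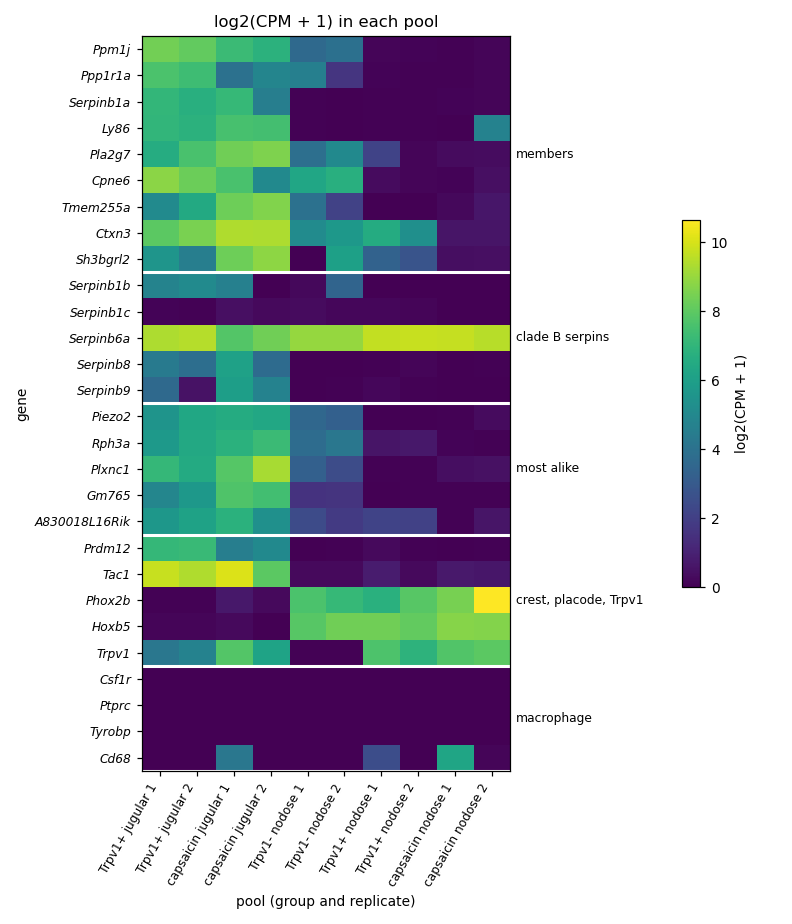
Level of the 9 genes, of 5 clade B serpins, of the 5 genes most like them and of marker genes (rows) in each pool (columns), as log2(CPM + 1) by colour. Serpinb8 is seen in the jugular columns, as Serpinb1a is, Piezo2 has the mid-level Trpv1-negative columns seen for Ppm1j, and Csf1r, Ptprc and Tyrobp are at 0 in all 10 pools.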

How the data were processed

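The authors prepared libraries with SMARTer Ultra Low Input chemistry, aligned 50-base read pairs to mm10 with TopHat2 2.0.9 (Bowtie2 2.1.0.0) and counted genes with HTSeq. The deposited values are raw counts per gene symbol. Gene annotation and strand setting of the counting are not given in the sources used here. CPM was computed here as counts over median-of-ratios size factors of all 10 pools (5492 genes), scaled by the geometric mean total. Groups came from the sample labels. Each comparison was fitted on its 4 pools with edgeR 4.0.16 (TMM, filterByExpr, quasi-likelihood, Benjamini-Hochberg) in R 4.3.3, tested on simulated data, with DESeq2 1.42.0 as an alternative. The standard errors given with edgeR fold changes were derived from the test. Each is the absolute log2 fold change over the square root of its quasi-likelihood F statistic. Members get no p-value, since each comparison has a side that chose them. The members, family lists and marker lists were chosen with earlier results of these data known. Other genes named are listed relatives, markers, the 5 most like the mean pattern and the 1 most like each member. Likeness is Pearson's r of log2(CPM + 1) over genes at 10 CPM or more in both pools of a group. Positions come from GENCODE vM21 (GRCm38). In the files 27 rows have date-like symbols, and none is a member. Pools of a group differed beyond counting noise (chi-square per degree of freedom 513 to 3040), so none was a duplicate.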

Additional observations from a re-analysis of the deposited data

How the results depend on the processing

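With 2 pools a group, counts of calls depended on the tool more than on scaling. For Trpv1-negative against Trpv1-positive nodose pools edgeR called 6 genes (0 higher and 6 lower in the negative pools), 10 with no filter on low counts, 15 with the spread of 6 pools and 320 with DESeq2 (243 higher, 77 lower), and leaving out any 1 pool gave 0 to 0. Jugular against nodose calls in the Trpv1 selection were 35 (15 higher and 20 lower in jugular), 59 with no filter, 71 with 6 pools and 459 with DESeq2 (270 higher, 189 lower), and 0 to 0 with any 1 pool left out. In the capsaicin selection edgeR called 0 genes (1150 at an unadjusted p under 0.05), 122 with no filter and 734 with DESeq2, and 0 to 29 with 1 pool left out. Of the relatives, 0 were called in each; DESeq2 called 3 (Trpv1-negative against positive), 3 (Trpv1 selection) and 6 (capsaicin selection), no filter gave 1 in the Trpv1 selection, 2 in the capsaicin selection, and the 6-pool fit gave 1 in the Trpv1 selection. Members above the Trpv1-negative pools numbered 4 at 10-fold, 8 at 2-fold and 2 at 100-fold. The share over all genes was counted at 10-fold only (3.09% of 6239 genes). The jugular side had chosen the members, so nothing is read from these counts.

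Pools with the same replicate number did not deviate together (r = -0.0126, 0.00221 and -0.0137 in the comparisons above, in that order). Since pools of a group often disagreed on single genes, these values cannot decide whether the numbers pair the pools. With a replicate block the calls were 1, 13 and 20 in these comparisons, in the order above. The block turned the Trpv1-negative over Trpv1-positive difference of Sh3bgrl2 to -2.90 (log2), and leaving out 1 pool gave -9.25 (without Trpv1-negative pool 2) to 3.09. That of Ctxn3 ran from -1.17 to 0.085 (without Trpv1-positive nodose pool 1), and that of Ly86 from -0.82 to 0.15 (without that pool), with 0.0059 without Trpv1-negative pool 2. The cause was not tested. Depth limits the capsaicin nodose values most, where 3 counts are 0.125 to 0.176 CPM.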

Other observations

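Hsp90b1, a chaperone that Toll-like receptors need, was at 651 and 468 CPM in Trpv1-positive nodose and 125 and 136 CPM in Trpv1-positive jugular pools (edgeR adjusted p = 0.15), and at 826 and 109 against 342 and 322 CPM in the capsaicin selection (edgeR adjusted p = 1). Ppm1e was at 11.2 and 13.2 CPM in the Trpv1-negative pools and at 9 and 3 counts in the Trpv1-positive nodose pools (DESeq2 adjusted p = 1.2e-06; edgeR adjusted p = 0.367).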
